A study of Mus musculus with 20 samples.

Results

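The nuclear receptors for vitamin A are encoded by 6 genes, the retinoic acid receptors *Rara*, *Rarb* and *Rarg* and the retinoid X receptors *Rxra*, *Rxrb* and *Rxrg*. They were taken by their symbols from a table of 24411 genes, and all 6 were among the 18807 genes tested. RNA of the outer eyecup, which holds the retinal pigment epithelium (RPE) and the choroid, was sequenced from C57BL/6 mice in 4 groups of 5 samples. WT mice and mice with a germline deletion of *Stra6* (*Stra6-/-*), the cell surface receptor that takes up vitamin A from its carrier in blood, were bred on chow rich in vitamin A. From weaning they were kept for 12 weeks on a vitamin A sufficient (VAS) diet with 4 IU of vitamin A per g or a vitamin A deficient (VAD) diet with 0 IU per g. By the study's account both eyecups of 1 mouse were pooled into each sample, which would make the 5 samples of a group 5 mice. This could not be checked for the samples labelled VAD *Stra6-/-*, in which transcripts of both sexes were high (values below). The WT mice came from a commercial colony, and the labels do not say that the genotypes were littermates. Values are read counts divided by 1 size factor per library, called normalized values here, with ± giving the SD over the 5 samples of a group, and the libraries held 13331903 to 21878614 reads.

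Retinoic acid is made from vitamin A in the cell and enters the nucleus, where it binds a retinoic acid receptor (RAR). The RAR is paired with a retinoid X receptor (RXR) on direct repeats of a short DNA motif in target genes. Without ligand the pair holds corepressors, and with ligand it exchanges them for coactivators. RXRs also pair with many other nuclear receptors, such as those for thyroid hormone, vitamin D, fatty acids and oxysterols. *Rarb* and *Cyp26a1*, which encodes an enzyme that degrades retinoic acid, are classical direct targets of the RAR itself. In the eye, RPE and choroid are known sites of retinoic acid synthesis, and *Rarg* is known as the main RAR of skin and other stratified epithelia.

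Several libraries stood apart from their labels, and this touches every comparison below. The targeted gene *Stra6* averaged 2591 in VAS WT and 629 in VAS *Stra6-/-*, but 986 in VAD WT and 2163 in the samples labelled VAD *Stra6-/-*. *Stra6* in the samples labelled VAD *Stra6-/-* was thus above its level in VAD WT (log2 fold change 1.23, adjusted p = 3.92e-06, limma). These 5 samples are called by their label throughout. The paper places STRA6 in the RPE, and summed RPE markers were also higher in these samples, at 483859 to 523855 against 32446 to 59009 in VAD WT. In the VAS groups those sums were 109468 to 125690 in WT and 115086 to 120439 in *Stra6-/-*. The part of RPE content in the *Stra6* values was not tested. The *Stra6* level alone therefore does not settle the genotype of the samples labelled VAD *Stra6-/-*. The Y-linked transcript *Ddx3y* was at 981 to 1193 in VAS WT and at 0 to 1.02 in VAS *Stra6-/-*, while the X-inactivation transcript *Xist* was at 7.69 to 38.4 and 15320 to 18052, so sex and genotype cannot be told apart on the VAS diet. Both transcripts were high in the samples labelled VAD *Stra6-/-*, *Xist* at 3570 to 4280 and *Ddx3y* at 741 to 970. Replicates 2 and 4 of VAD WT had *Xist* at 10912 and 11767 against 174 to 234 in the other 3, and *Ddx3y* at 75.2 and 80.5 against 1041 to 1133. Receptor differences from VAD WT that were called with all samples or without these 2 libraries are therefore given both ways. Those values of other genes that moved most are also given without these 2 libraries. No called difference of a named gene that involves VAD WT lost its call without them (limma).

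The labelled tissue was checked against its markers. The summed value of 12 RPE markers, among them *Rpe65* and *Best1*, was 109468 to 125690 in VAS WT, 32446 to 59009 in VAD WT, 115086 to 120439 in VAS *Stra6-/-* and 483859 to 523855 in the samples labelled VAD *Stra6-/-*. The sum of 14 surface epithelium markers, keratins and junction genes of cornea and conjunctiva, ran the other way. It was 614574 to 753038 in VAS WT, 413223 to 1115777 in VAD WT, 977333 to 1015543 in VAS *Stra6-/-* and 27107 to 34195 in the samples labelled VAD *Stra6-/-*. Cone markers were also present, at sums of 4666 to 5964 in VAS WT and 1620 to 1665 in the samples labelled VAD *Stra6-/-*, where *Arr3* and *Cnga3* were at 0 in some libraries. In bulk RNA, fewer cells of a type and less RNA per cell cannot be told apart.

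All 6 receptor genes were transcribed in every library, at very different levels. Reads assigned to them in the 19 libraries with recovered reads ranged from 700 to 5867 for *Rarg*, from 315 to 844 for *Rara* and from 171 to 591 for *Rarb*, but only from 20 to 133 for *Rxrg*. Per kilobase of exon, which allows genes to be compared, *Rarg* was the most abundant RAR in each group, with a mean value per kb of 820 in VAS WT, 808 in VAD WT, 1107 in VAS *Stra6-/-* and 168 in the samples labelled VAD *Stra6-/-*. Among the RXRs, *Rxra* and *Rxrb* stood at 349 and 305 per kb in VAS WT, and *Rxrg* at 26.0 per kb. RXRs are shared partners, and their summed value per kb was below that of the RARs in 3 groups, with a mean RXR to RAR ratio of 0.66 ± 0.05 in VAS WT, 0.67 ± 0.18 in VAD WT and 0.61 ± 0.04 in VAS *Stra6-/-*. In the samples labelled VAD *Stra6-/-* the ratio was 1.40 ± 0.15, and its lowest value there, 1.17, lay above the highest of any other group, 0.87.

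**Figure D1:**
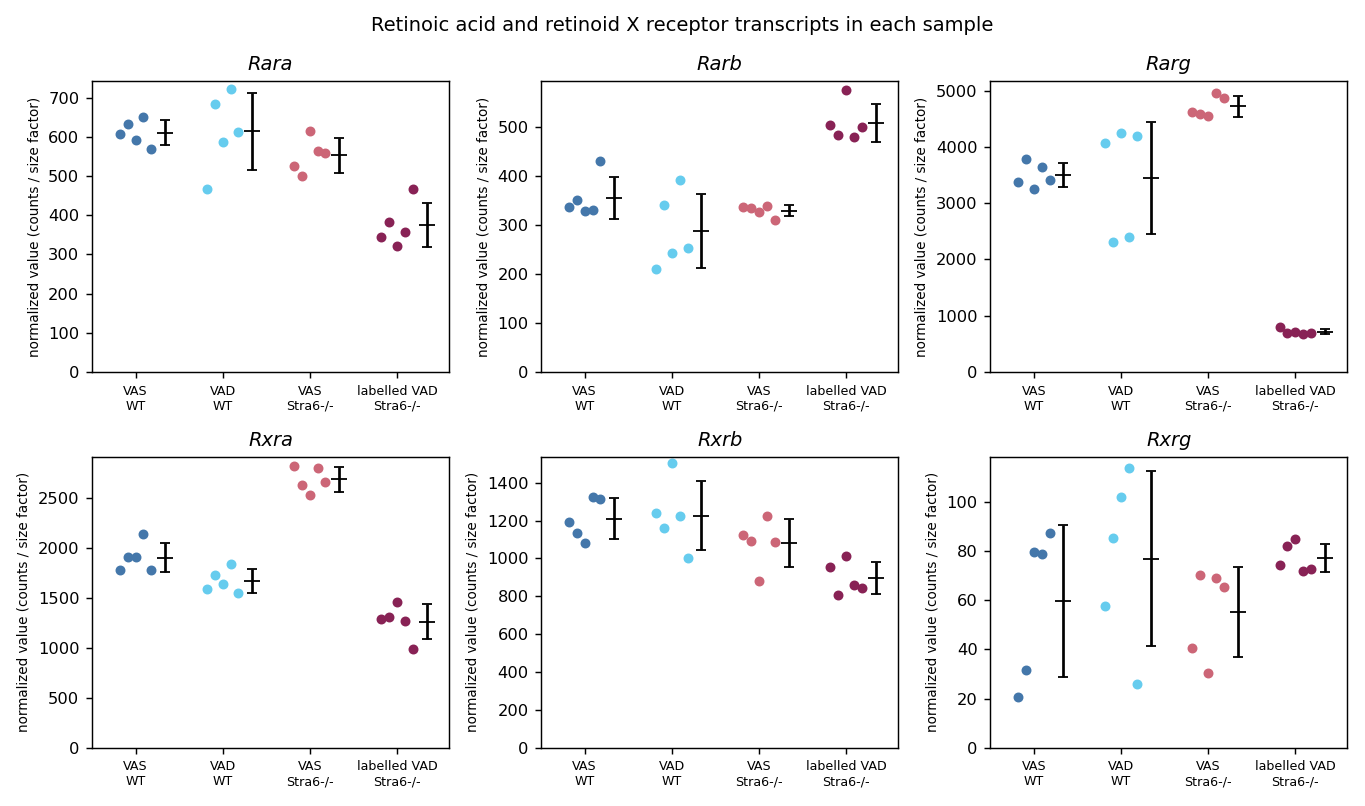
Normalized value of each receptor transcript (vertical axes, linear, each with its own scale) in the 4 groups; each point is 1 sample and the black mark beside the points is the mean with its SD (n = 5). *Rarg* lies between 682 and 798 in the samples labelled VAD *Stra6-/-* and at 2318 or higher in every other sample, and in VAD WT it splits into 2 low and 3 high samples.

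A gene was called at an adjusted p under 0.05 over all genes tested (limma on log2(value + 1)). On the VAS diet 2 of 6 receptors were higher in *Stra6-/-* and 0 lower, where 26.6% of the genes tested were called in either direction, 15.9% higher and 10.8% lower. Between the samples labelled VAD *Stra6-/-* and VAD WT, 1 receptor was higher and 4 were lower, beside 55.9% of all genes, 26.2% higher and 29.6% lower. Against VAS *Stra6-/-* the same libraries also had 1 receptor higher and 4 lower, beside 53.2% of all genes, 24.4% higher and 28.8% lower. These comparisons share the samples labelled VAD *Stra6-/-*, so they are not independent. Between VAD WT and VAS WT 0 receptors were called with limma, beside 8.78% of all genes, 3.29% higher and 5.5% lower. At an unadjusted p under 0.05 limma gave 2 receptors there, and edgeR and DESeq2 called 0. Without VAD WT replicates 2 and 4 limma called 3, beside 37.9% of all genes.

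*Rarg* differed most between the groups. The gene lies on chromosome 15 from 102234938 to 102257517 of GRCm38, on the minus strand. Its normalized values in replicates 1 to 5 were 3372, 3782, 3259, 3640 and 3420 in VAS WT and 4623, 4588, 4555, 4955 and 4863 in VAS *Stra6-/-*, which do not overlap. In VAD WT they were 4074, 2318, 4238, 2391 and 4200, and in the samples labelled VAD *Stra6-/-* 798, 698, 717, 682 and 694. The 3 high VAD WT samples thus reached above the VAS WT range, the 2 low ones (replicates 2 and 4) fell below it, and the samples labelled VAD *Stra6-/-* were far below all others.

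On the VAS diet, *Rarg* was higher in *Stra6-/-* than in WT by 0.43 on the log2 scale (SE 0.14, adjusted p = 0.0235, limma). In the fit over all groups that call depended on single samples. Without VAS WT replicate 3 the adjusted p was 0.0561 and without VAS *Stra6-/-* replicate 4 it was 0.0528 (limma). With only the groups compared in the fit it was 2.4e-05 (limma). The samples labelled VAD *Stra6-/-* were lower than VAD WT, with a log2 fold change of -2.21 (SE 0.14, adjusted p = 1.41e-11, limma), and lower than VAS *Stra6-/-*, with -2.72 (SE 0.14, adjusted p = 4.44e-13, limma). *Rarg* was the only receptor past a log2 fold change of 2 in either direction. Between VAD WT and VAS WT the difference was -0.07 (SE 0.14, adjusted p = 0.817, limma), and without VAD WT replicates 2 and 4 it turned to 0.26 (adjusted p = 9.31e-04, limma). Without them the difference between the samples labelled VAD *Stra6-/-* and VAD WT was -2.54.

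The surface epithelium markers moved with *Rarg* across the samples. In VAD WT replicates 2 and 4, where *Rarg* was 2318 and 2391, the marker sum was 413223 and 413697, and in replicates 1, 3 and 5, where *Rarg* was 4074 to 4238, the sum was 1081590 to 1115777. Relative to VAD WT and to VAS *Stra6-/-*, all 14 markers were lower in the samples labelled VAD *Stra6-/-*, beside 29.6% and 28.8% of all genes. Their medians were -4.40 and -5.01 on the log2 scale. Between VAS *Stra6-/-* and VAS WT, 8 of the 14 were higher and 2 lower, beside 15.9% of all genes higher and 10.8% lower. The 3 transcripts whose log2 values ran most closely with *Rarg* over the 20 libraries were *Sdc1* (Pearson r = 0.999), *Jup* (0.996) and *Pkp3* (0.996), the first a cell surface proteoglycan and the others junction plaque proteins. This is a description over 4 groups of libraries, not a test. The part of the surface epithelium in the *Rarg* result was not tested.

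**Figure D2:**
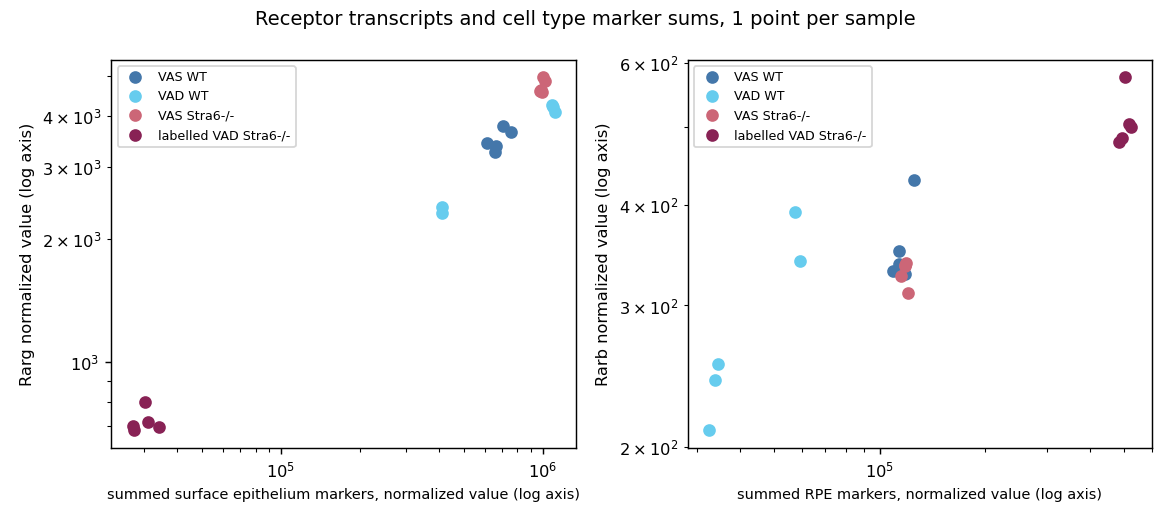
Normalized value of *Rarg* against the summed surface epithelium markers (left) and of *Rarb* against the summed RPE markers (right), 1 point per sample, all axes logarithmic. The 5 samples labelled VAD *Stra6-/-* lie at epithelium sums of 27107 to 34195 with *Rarg* at 682 to 798, and VAD WT replicates 2 and 4 lie apart from the other 3 in both panels.

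*Rarb* moved in the opposite direction. The gene lies on chromosome 14 from 16430839 to 16819156, on the minus strand. Its normalized values were 338, 351, 329, 331 and 430 in VAS WT, 337, 336, 326, 339 and 311 in VAS *Stra6-/-*, and 210, 341, 243, 392 and 253 in VAD WT. They were 504, 484, 576, 479 and 500 in the samples labelled VAD *Stra6-/-*, all above every other sample. *Rarb* was higher there than in VAD WT by 0.86 on the log2 scale (SE 0.13, adjusted p = 1.35e-05, limma) and than in VAS *Stra6-/-* by 0.62 (SE 0.13, adjusted p = 4.99e-04, limma). It was the only receptor called higher in these libraries. Without VAD WT replicates 2 and 4 the difference from VAD WT was 1.11 (adjusted p = 3.39e-09, limma). Between the genotypes on the VAS diet the difference was -0.10 (95% confidence interval -0.38 to 0.18, adjusted p = 0.637, limma).

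In WT mice, *Rarb* on the VAD diet was at -0.34 on the log2 scale relative to the VAS diet (SE 0.13, adjusted p = 0.138, limma), which did not pass. The 2 VAD WT samples that stood apart, replicates 2 and 4, had the highest *Rarb* values of the group, 341 and 392, within the VAS WT range. The other 3, at 210 to 253, were below all VAS WT samples. Without replicates 2 and 4 the difference was -0.59 (adjusted p = 8.31e-05, limma), and without replicate 4 alone it was -0.46 (adjusted p = 0.0138, limma). The RPE marker sum was 57377 and 59009 in replicates 4 and 2 and 32446 to 34418 in the other 3, so it moved with *Rarb* within VAD WT, and its part in the result was not tested.

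The exons of *Rarb* overlap those of *Top2b*, a DNA topoisomerase gene on the opposite strand, over 1793 bp or 34.1% of the exon bases of *Rarb*. How strand was used in counting is not given in the sources used here, so reads of the shared bases could belong to either gene. *Top2b* averaged 1683, 1751, 2041 and 2126 in VAS WT, VAD WT, VAS *Stra6-/-* and the samples labelled VAD *Stra6-/-*. It was higher in the last than in VAD WT by 0.30 (adjusted p = 0.0174, limma), while against VAS *Stra6-/-*, where *Rarb* differed by 0.62, it was at 0.06 (adjusted p = 0.684, limma). No other coding gene shares exon bases with a receptor gene in GENCODE vM21.

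*Rara*, the RAR found in most tissues, lies on chromosome 11 from 98927818 to 98974942, on the plus strand. Its normalized values were 607, 633, 593, 650 and 569 in VAS WT, 467, 684, 586, 722 and 612 in VAD WT, and 525, 500, 616, 565 and 558 in VAS *Stra6-/-*. They were 344, 383, 322, 357 and 466 in the samples labelled VAD *Stra6-/-*. The highest of these, 466, lay just below the lowest VAD WT value and below all values of the VAS groups. *Rara* was lower in these libraries than in VAD WT, at -0.71 on the log2 scale (SE 0.11, adjusted p = 1.31e-05, limma), and than in VAS *Stra6-/-*, at -0.57 (SE 0.11, adjusted p = 1.71e-04, limma). Without VAD WT replicates 2 and 4 the former was -0.57 (adjusted p = 1.12e-04, limma). The neighbours VAD WT, VAS WT and VAS *Stra6-/-* in the order of means did not differ beyond their spread. The 3 transcripts closest to *Rara* over the 20 libraries were *Rims2* (Pearson r = 0.94), *Tfap2b* (0.93) and *Nrsn2* (0.93).

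The make-up of the RAR pool therefore differed between the libraries. As a share of the summed RAR value per kb, *Rarg* made up 79.8% ± 0.7 in VAS WT, 79.3% ± 8.0 in VAD WT and 85.4% ± 0.8 in VAS *Stra6-/-*. It made up 48.0% ± 2.5 in the samples labelled VAD *Stra6-/-*. The share of *Rarb* was 6.59% ± 0.86 in VAS WT and 27.5% ± 2.1 in the samples labelled VAD *Stra6-/-*. The share of *Rara* was 13.6% ± 0.6 and 24.4% ± 3.3 in the same groups. Shares of a sum are bound to each other, so a fall of *Rarg* alone raises the others. The RAR sum itself was 1028 ± 54.7 per kb in VAS WT and 351 ± 13.0 in the samples labelled VAD *Stra6-/-*.

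**Figure D3:**
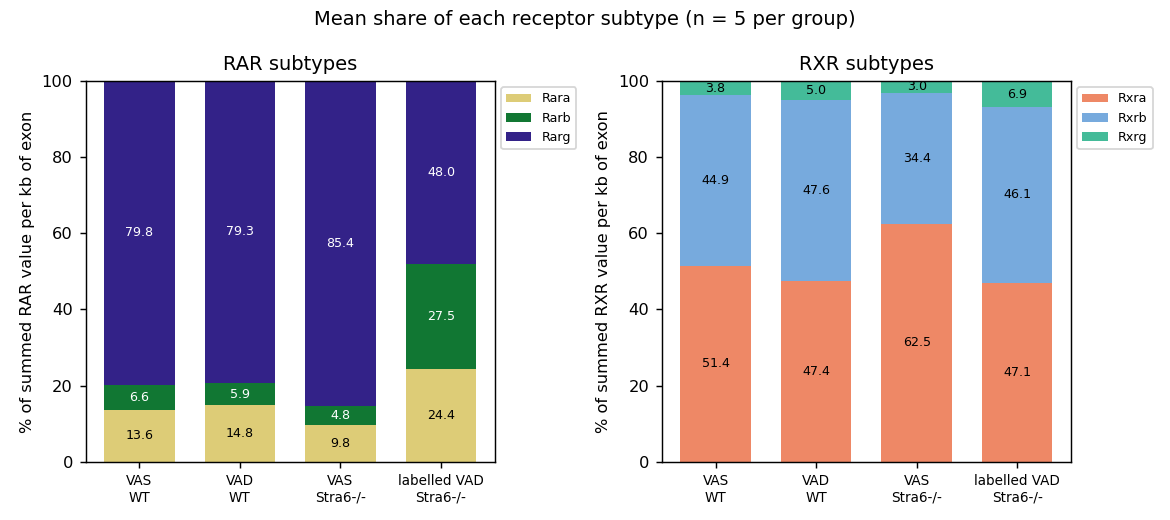
Mean share of each subtype (bars stacked to 100%, n = 5 per group) in the summed RAR values (left) and RXR values (right) per kb of exon. *Rarg* takes 79.3% to 85.4% of the RAR sum in 3 groups and 48.0% in the samples labelled VAD *Stra6-/-*.

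*Rxra*, the RXR with the widest role in development, lies on chromosome 2 from 27676440 to 27762957, on the plus strand. Its normalized values were 1778, 1909, 1915, 2137 and 1781 in VAS WT and 2824, 2628, 2529, 2802 and 2660 in VAS *Stra6-/-*. They were 1589, 1727, 1636, 1845 and 1548 in VAD WT and 1292, 1311, 1464, 1268 and 986 in the samples labelled VAD *Stra6-/-*. The VAS *Stra6-/-* samples lay above all others and the samples labelled VAD *Stra6-/-* below all others, while the WT groups overlapped. On the VAS diet *Rxra* was higher in *Stra6-/-* by 0.50 on the log2 scale (SE 0.09, adjusted p = 1.44e-04, limma), and no single sample left out ended this call.

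The samples labelled VAD *Stra6-/-* had less *Rxra* than VAD WT, at -0.41 (SE 0.09, adjusted p = 3.14e-04, limma), and than VAS *Stra6-/-*, at -1.10 (SE 0.09, adjusted p = 4.13e-10, limma). The difference from VAD WT was -0.34 without VAD WT replicates 2 and 4 (adjusted p = 0.00185, limma). Between the diets in WT mice the difference was -0.19 (SE 0.09, adjusted p = 0.194, limma), and it was -0.26 (adjusted p = 0.0266, limma) without VAD WT replicates 2 and 4. The share of *Rxra* in the RXR sum per kb was 62.5% ± 2.4 in VAS *Stra6-/-* and 47.1% to 51.4% in the means of the other groups. The 3 closest transcripts over the 20 libraries were *Sec24c* (Pearson r = 0.98), *Sorl1* (0.97) and *Stard4* (0.97).

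*Rxrb*, which lies on chromosome 17 from 34031812 to 34038399 on the plus strand, varied least. Its normalized values were 1084 to 1323 in VAS WT, 1005 to 1503 in VAD WT, 878 to 1226 in VAS *Stra6-/-* and 806 to 1011 in the samples labelled VAD *Stra6-/-*, so the ranges overlapped in all 4 comparisons. It was lower in the last group than in VAD WT at -0.45 on the log2 scale (SE 0.10, adjusted p = 8.49e-04, limma). Without VAD WT replicates 2 and 4 this was -0.47 (adjusted p = 0.00135, limma). Against VAS *Stra6-/-* it was lower at -0.27 (SE 0.10, adjusted p = 0.0318, limma), but leaving out any 1 of 7 samples ended that call. These were replicates 1, 2, 4 and 5 of VAS *Stra6-/-* and replicates 2, 4 and 5 of the samples labelled VAD *Stra6-/-*, with adjusted p of 0.0557 to 0.0933 (limma).

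*Rxrg*, known from cones among other cells, lies on chromosome 1 from 167598384 to 167639623, on the plus strand, and was not called in any comparison. Its normalized values were 20.6 to 87.5 in VAS WT, 26.0 to 114 in VAD WT, 30.5 to 70.2 in VAS *Stra6-/-* and 72.0 to 85.0 in the samples labelled VAD *Stra6-/-*. The 95% confidence interval of its genotype difference on the VAS diet ran from -0.84 to 0.88 on the log2 scale, and differences within it could not be told from 0. The SD of *Rxrg* was 52.0% of the mean in VAS WT, 46.0% in VAD WT and 33.3% in VAS *Stra6-/-*, but 7.61% in the samples labelled VAD *Stra6-/-*. Of 11 cone markers, 10 were lower in VAS *Stra6-/-* than in VAS WT and 1, *Thrb*, was not called, beside 10.8% of all genes lower. Their median was -1.48. *Rxrg* in the samples labelled VAD *Stra6-/-* was above all VAS *Stra6-/-* samples, at a difference of 0.55 that did not pass (SE 0.41, adjusted p = 0.286, limma).

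The diet difference depended on the genotype label for 4 of the 6 receptors. The interaction, the diet difference in *Stra6-/-* minus that in WT, was -2.64 for *Rarg* (SE 0.20, adjusted p = 4.55e-10, limma), -0.91 for *Rxra* (SE 0.12, adjusted p = 2.32e-06, limma), -0.56 for *Rara* (SE 0.16, adjusted p = 0.00578, limma) and 0.96 for *Rarb* (SE 0.19, adjusted p = 2.98e-04, limma). It was -0.28 for *Rxrb* (adjusted p = 0.128, limma), with an adjusted p of 0.0464 without VAD WT replicate 5 and 0.0448 without VAS *Stra6-/-* replicate 3 (limma), and 0.14 for *Rxrg* (adjusted p = 0.867, limma). Of all genes, 44.2% had an interaction past the threshold. Without VAD WT replicates 2 and 4 the same 4 receptors passed, beside 54.7% of all genes. Since the *Stra6* level does not settle the genotype of the libraries labelled VAD *Stra6-/-*, the interaction compares the libraries as labelled.

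**Figure D4:**
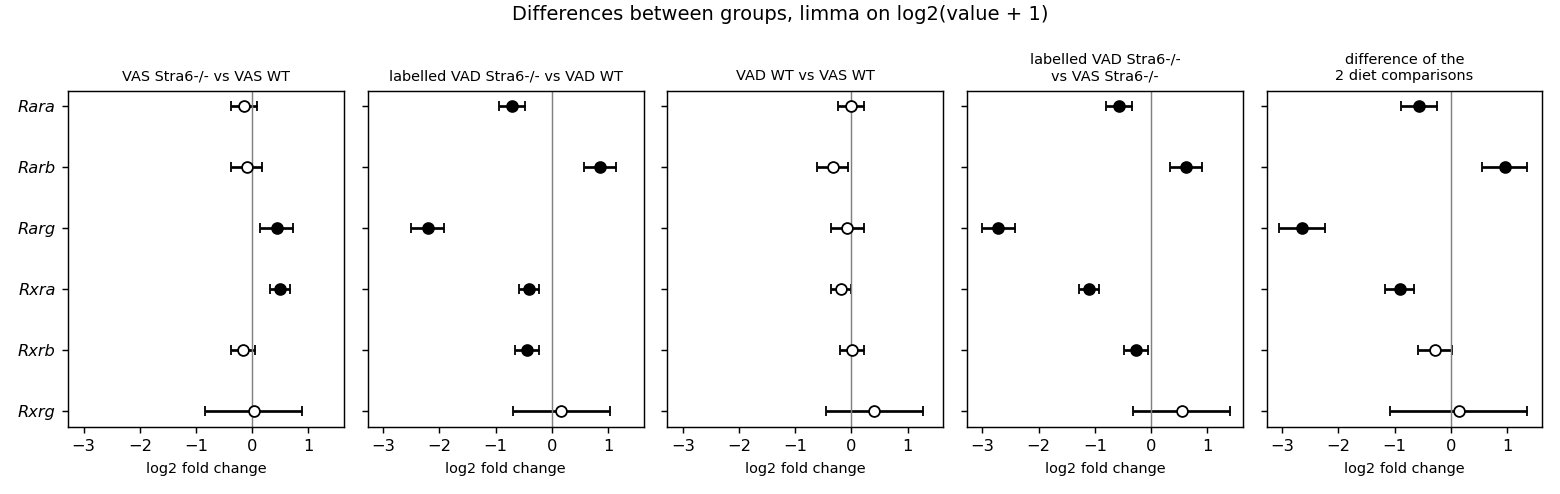
Log2 fold change of each receptor (horizontal axis, linear) with its 95% confidence interval in the 4 comparisons between groups and for the difference of the diet comparisons; filled points passed an adjusted p of 0.05 (limma). *Rarg* reaches -2.72 in the samples labelled VAD *Stra6-/-* against VAS *Stra6-/-*, *Rarb* is above 0 there, and the intervals of *Rxrg* cross 0 in all 5 panels.

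*Rarb* is itself a target of the RAR, and its start site shows the element through which this is known to work. RefSeq start-site windows of GRCm38.p6, from 250 bases before to 50 after the start, were available for all 6 receptors, 13 windows in all. The receptors bind repeats of a half-site read here as GGTCA or GTTCA after 1 free base, and repeats with a spacer of 5 bases (DR5) were searched on both strands as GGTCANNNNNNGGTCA, GGTCANNNNNNGTTCA, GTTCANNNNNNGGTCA and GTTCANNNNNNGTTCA. Of 32851 windows, 81 (0.247%) held such a repeat, and 1 of the 13 receptor windows did, that of *Rarb*. Repeats with spacers of 1 and 2 bases were in 0.402% and 0.399% of the windows and in 0 receptor windows. The *Rarb* window (chr14:16575427-16575726, minus strand) is shown with that of *Cyp26a1* (chr19:37697558-37697857, plus strand), each 5′ to 3′ on the strand of its gene, with the repeat in capitals:
Rarb: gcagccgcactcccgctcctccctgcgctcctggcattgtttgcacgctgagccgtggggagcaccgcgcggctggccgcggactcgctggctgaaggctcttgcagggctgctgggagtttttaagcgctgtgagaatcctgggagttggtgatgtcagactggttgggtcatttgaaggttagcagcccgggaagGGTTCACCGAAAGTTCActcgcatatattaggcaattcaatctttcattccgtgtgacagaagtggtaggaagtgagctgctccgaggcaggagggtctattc
Cyp26a1: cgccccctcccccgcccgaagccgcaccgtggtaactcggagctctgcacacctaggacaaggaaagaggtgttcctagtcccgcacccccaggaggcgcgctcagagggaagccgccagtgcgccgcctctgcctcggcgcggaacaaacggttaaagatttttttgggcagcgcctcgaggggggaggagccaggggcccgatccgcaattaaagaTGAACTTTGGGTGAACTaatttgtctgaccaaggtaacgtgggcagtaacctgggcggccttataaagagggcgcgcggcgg

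In *Rarb* the 17 bases of the repeat lie 53 to 37 bases before the start, and in *Cyp26a1* they lie 32 to 16 bases before it and read as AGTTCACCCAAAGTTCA on the opposite strand. *Cyp26a1* was at 236, 205, 172, 196 and 203 in VAS WT and at 54.9, 42.8, 55.9, 55.7 and 21.5 in VAS *Stra6-/-*, lower at -2.18 on the log2 scale (SE 0.55, adjusted p = 0.00502, limma), while *Rarb* did not differ there. It was at 270, 289, 266, 254 and 189 in the samples labelled VAD *Stra6-/-*, above VAS *Stra6-/-* by 2.49 (SE 0.55, adjusted p = 5.72e-04, limma). In VAD WT, *Cyp26a1* was at 276 and 370 in replicates 2 and 4, above all VAS WT samples, and at 24.7 to 51.1 in the other 3, as low as VAS *Stra6-/-*. The difference between VAD WT and VAS WT was -1.27 (adjusted p = 0.173, limma) with all samples and -2.55 (adjusted p = 4.60e-07, limma) without replicates 2 and 4. The samples labelled VAD *Stra6-/-* were above VAD WT by 1.58 (adjusted p = 0.0180, limma), but the groups overlapped and 6 of 22 alternatives ended the call. Without VAD WT replicates 2 and 4 it was 2.87 (adjusted p = 1.47e-08, limma). With edgeR it was 0.68 and 0.70 (TMM and DESeq2 factors) and with DESeq2 0.72 (adjusted p = 0.334), on 19 libraries. Without VAD WT replicate 1 it was 1.22 (adjusted p = 0.0662, limma) and without replicate 5 it was 1.16 (adjusted p = 0.0721, limma). Among all 73 genes with the repeat, 31 were tested, and 22.6%, 54.8%, 6.45% and 58.1% of them were called in the comparisons of VAS *Stra6-/-* with VAS WT, of the samples labelled VAD *Stra6-/-* with VAD WT, of VAD WT with VAS WT and of the samples labelled VAD *Stra6-/-* with VAS *Stra6-/-*, beside 26.6%, 55.9%, 8.78% and 53.2% of all genes.

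**Figure D5:**
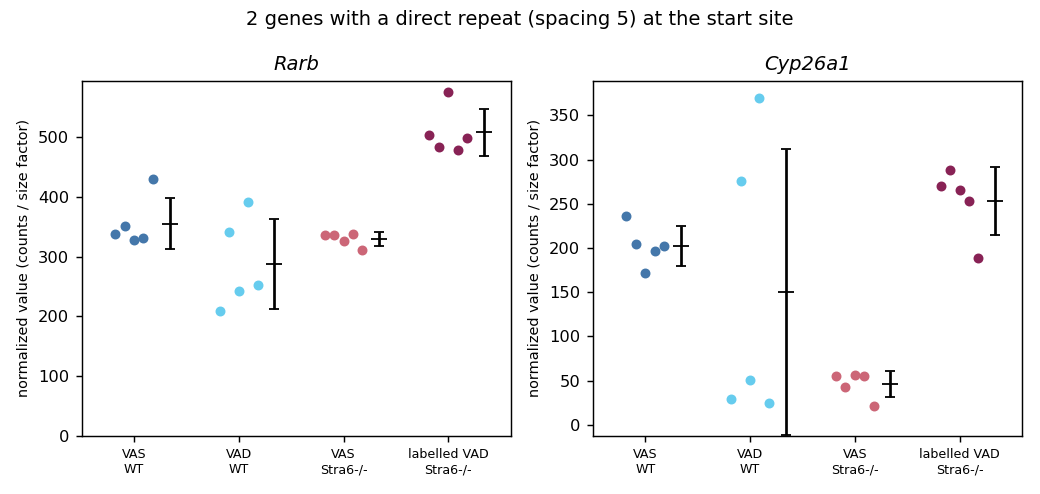
Normalized values of *Rarb* and *Cyp26a1* (vertical axes, linear) in the 4 groups, 1 point per sample with the mean and SD beside them (n = 5). In VAD WT both genes are higher in replicates 2 and 4 than in the other 3 samples, while *Cyp26a1* and not *Rarb* is low in all VAS *Stra6-/-* samples.

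Transcripts of the genes that make, carry and degrade retinoic acid were examined, which do not measure retinoic acid itself. *Rdh10*, which makes retinaldehyde from retinol, was at 15462 ± 332 in the samples labelled VAD *Stra6-/-* and at 698 ± 557 in VAD WT, higher in the former by 4.86 on the log2 scale (adjusted p = 7.72e-11, limma), and by 5.72 without VAD WT replicates 2 and 4. Of the enzymes that oxidize retinaldehyde to retinoic acid, *Aldh1a3* was lower in these libraries, at 168 against 1274 (log2 fold change -2.91, adjusted p = 6.97e-16, limma), and *Aldh1a2* higher, at 1319 against 793 (0.81, adjusted p = 3.10e-04, limma). On the VAS diet *Aldh1a3* was higher in *Stra6-/-* by 0.88 (adjusted p = 8.47e-07, limma). It was the only one of the 4 synthesis genes called there, beside 26.6% of all genes. *Aldh1a1* was higher in VAD WT than in VAS WT by 0.70 (adjusted p = 0.00365, limma, and 0.111 with only these groups in the fit). All 4 synthesis genes were called in that comparison, 2 higher and 2 lower, beside 3.29% of all genes higher and 5.5% lower. Relative to VAD WT, the carrier *Fabp5* was lower in the samples labelled VAD *Stra6-/-*, at -1.75 (adjusted p = 1.85e-07, limma; -2.26 without VAD WT replicates 2 and 4), and *Crabp1* was lower in VAS *Stra6-/-* than in VAS WT at -1.06 (adjusted p = 0.0331, limma), a call lost without any 1 of replicates 2 to 5 of either group, with an adjusted p of up to 0.0932. *Cyp26b1*, the other main degrading enzyme, was lower in the samples labelled VAD *Stra6-/-* than in VAS *Stra6-/-* at -1.06 (adjusted p = 0.0119, limma). Relative to VAD WT, 11 of 12 RPE markers were higher in the samples labelled VAD *Stra6-/-*, with a median of 3.30, beside 26.2% of all genes higher. All 14 surface epithelium markers were lower there, with a median of -4.40, beside 29.6% of all genes lower. The part of tissue content in the values of these genes was not tested.

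Genes known to be induced by retinoic acid did not move together. Of 13 listed, 12 were tested, and on the VAS diet 2 were higher in *Stra6-/-*, 5 were lower and 5 were not called, beside 26.6% of all genes called, with a median of 0.06 beside 0.02 for all genes. *Nrip1*, a coregulator of nuclear receptors, was higher by 2.38 (adjusted p = 2.38e-04, limma) and *Tgm2*, a transglutaminase, by 0.47 (adjusted p = 0.0177, limma), while *Cyp26a1* was lower. One of the 5 lower genes is *Stra6* itself, which is deleted in this genotype, so its value is no measure of a response. In VAD WT against VAS WT 0 were higher and 4 lower, beside 8.78% of all genes called. Among the lower was *Lrat*, which stores vitamin A as esters, at -1.88 (adjusted p = 1.44e-05, limma). *Lrat* is also among the 12 RPE markers, of which 11 were lower in this comparison (median -1.05), beside 5.5% of all genes. Without VAD WT replicates 2 and 4, 2 of the genes induced by retinoic acid were higher and 8 lower, beside 37.9% of all genes, and *Lrat* was at -2.45. In the samples labelled VAD *Stra6-/-* against VAD WT 6 were higher and 2 lower, beside 55.9% of all genes called, and without VAD WT replicates 2 and 4 they were 7 and 1, beside 63.1%. *Lrat*, a transcript abundant in RPE, was higher by 5.33 (adjusted p = 5.92e-14, limma, and 5.90 without those replicates). In the same comparison 11 of the 12 RPE markers, *Lrat* itself among them, were higher, with a median of 3.30, beside 26.2% of all genes. *Tgm2* was lower at -1.59 (adjusted p = 4.73e-09, limma). The part of the RPE share in these values was not tested.

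Of the cofactors that the receptors recruit, some differed with the genotype on the VAS diet, where 15.9% of all genes were called higher and 10.8% lower. Of 8 coactivator genes 5 were higher in VAS *Stra6-/-*, 0 lower and 3 not called (median 0.46), among them the acetyltransferases *Crebbp* at 1.23 (adjusted p = 0.00108, limma) and *Ep300* at 0.86 (adjusted p = 1.30e-05, limma). Of 7 corepressor genes 3 were higher, 1 lower and 3 not called (median 0.27). *Tbl1x* was higher by 1.30 (adjusted p = 2.78e-04, limma) and *Ncor1*, the core corepressor, by 0.57 (adjusted p = 2.21e-06, limma), and the deacetylase *Hdac3* was lower at -0.37 (adjusted p = 6.01e-04, limma). Against VAS *Stra6-/-*, the samples labelled VAD *Stra6-/-* had 6 of 8 coactivators lower and 1 higher and 3 of 7 corepressors lower and 1 higher, beside 28.8% of all genes lower and 24.4% higher, with *Crebbp* at -2.17 (adjusted p = 2.84e-07, limma), *Ep300* at -1.57 (adjusted p = 2.47e-10, limma) and *Ncor1* at -0.94 (adjusted p = 1.32e-10, limma). *Hdac3* was higher there by 0.51 (adjusted p = 3.11e-06, limma) and *Kat2b* by 0.47 (adjusted p = 0.00613, limma).

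Most of these genes have long transcripts, and length moved with the same comparisons. Among genes with a mean value of at least 10, the median difference between VAS *Stra6-/-* and VAS WT went over the quartiles of exon length from -0.14 in the shortest to 0.17 in the longest. Between the samples labelled VAD *Stra6-/-* and VAS *Stra6-/-* it went from 0.16 to -0.27. The exons of *Crebbp*, *Ep300*, *Ncor1* and *Tbl1x*, with 13.5, 14.3, 12.8 and 7.05 kb, are in the longest quartile, while *Hdac3* with 4.05 kb and the 6 receptors are in the other 3. The exons of *Nrip1*, named above among the genes induced by retinoic acid, have 11.5 kb and are also in the longest quartile. The part of transcript length in the values of the cofactors and of *Nrip1* was not tested. In the samples labelled VAD *Stra6-/-* against VAD WT, the medians of the quartiles were -0.06 to -0.01. In that comparison 4 of 8 coactivators were lower and 2 higher, and 3 of 7 corepressors were lower and 0 higher. These counts stand beside 29.6% of all genes lower and 26.2% higher. They were the same without VAD WT replicates 2 and 4, beside 32.5% of all genes lower and 30.7% higher. *Ncoa3* was at -1.02 (adjusted p = 1.70e-09, limma).

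The other nuclear receptors that share RXR or its sites were called in mixed directions. Of 13 partner receptors, 3 were higher and 1 lower in VAS *Stra6-/-* than in VAS WT, where 26.6% of all genes were called, led by *Vdr*, the vitamin D receptor, at 357 ± 31.7 against 98.6 ± 26.3, a log2 fold change of 1.89 (adjusted p = 3.40e-06, limma). *Nr4a2*, an early response orphan receptor, was higher by 1.15 (adjusted p = 8.33e-06, limma) and *Nr1h4*, the bile acid receptor, lower at -1.59 (adjusted p = 0.00255, limma). In the samples labelled VAD *Stra6-/-* *Vdr* was lower than in VAS *Stra6-/-* at -2.96 (adjusted p = 5.16e-10, limma) and than in VAD WT at -1.48 (adjusted p = 1.26e-05, limma). *Pparg*, the fatty acid receptor of fat cells and macrophages, was higher than in VAD WT by 1.87 (adjusted p = 8.15e-06, limma, and 2.33 without VAD WT replicates 2 and 4). In that comparison 6 of 8 macrophage markers were higher and 1 lower, beside 26.2% of all genes higher and 29.6% lower. *Thrb*, the thyroid hormone receptor of cones, was higher in the samples labelled VAD *Stra6-/-* than in VAS *Stra6-/-* by 0.64 (adjusted p = 0.00330, limma). Of 11 cone markers, 6 were lower there and 3 were higher, *Thrb* itself, *Gnat2* and *Pde6c*, beside 28.8% of all genes lower and 24.4% higher. In VAD WT against VAS WT 0 of the 13 were called with limma, edgeR or DESeq2, beside 8.78% of all genes, and 2 had an unadjusted p under 0.05 (limma). Without VAD WT replicates 2 and 4, 4 were called, beside 37.9% of all genes.

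Of 8 orphan receptors that bind retinoid half-sites or related ones, *Nr2f1* (COUP-TFI), a competitor of RAR pairs on such sites, was the only one called in each of the 4 comparisons. Its normalized value was 611 ± 42.9 in VAS WT, 465 ± 40.1 in VAD WT, 401 ± 32.5 in VAS *Stra6-/-* and 625 ± 63.5 in the samples labelled VAD *Stra6-/-*. It was lower in VAS *Stra6-/-* than in VAS WT at -0.61 (adjusted p = 2.46e-05, limma) and in VAD WT than in VAS WT at -0.40 (adjusted p = 0.00579, limma). The samples labelled VAD *Stra6-/-* exceeded VAD WT by 0.43 (adjusted p = 3.19e-04, limma) and VAS *Stra6-/-* by 0.64 (adjusted p = 2.69e-06, limma). *Rora* was higher with the *Stra6* deletion on the VAS diet by 0.75 (adjusted p = 5.80e-04, limma).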

How the data were processed

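RNA-seq libraries of 20 outer eyecup samples, 5 in each of 4 groups named by the labels, were analysed. The authors aligned reads to GRCm38 with STAR 2.5.3a, counted genes with RSEM 1.2.30 and divided the counts by DESeq2 1.32.0 size factors; annotation and strand setting are not given in the sources used here. The deposited signal is therefore a count over 1 size factor per library, with no scaling for length and no logarithm: in 19 libraries all values were whole multiples of 1 step, within 0.01 of a read, and their reciprocals equal the median-of-ratios size factors. In 1 library (labelled VAD *Stra6-/-*, replicate 1) the step was too near 1 to claim reads. Libraries held 13331903 to 21878614 reads (median 17785927), with 20 to 133 reads of *Rxrg* per library.

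As these are not raw counts, limma 3.58.1 (R 4.3.3) was applied to log2(value + 1), with a mean per group, all 20 libraries, an intensity trend and Benjamini-Hochberg adjustment over the 18807 genes with at least 5 reads in total. The added 1 understates fold changes of genes with low values. If each sample is 1 mouse, as the study states, p-values measure the spread between mice. For the samples labelled VAD *Stra6-/-*, where *Xist* and *Ddx3y* were both high, that condition was not tested. Alternatives changed the pseudocount, filter, scaling, trend, libraries and replicate block, or used edgeR 4.0.16 and DESeq2 1.42.0 on the recovered reads of 19 libraries. All were tested on simulated data. Values per kb divide by the merged exon length in GENCODE vM21. Start-site windows came from RefSeq, with all 6 receptors matched.

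The receptors, the gene lists, the tests and the alternatives were chosen with earlier results of these data known. From each list other than the receptors, at most the 2 called genes with the largest fold change and no overlap between groups could be named per comparison and direction, and for each receptor the 3 transcripts with the highest correlation among 13519 genes with a mean value of at least 50. *Top2b*, for its overlap with *Rarb*, and the length quartiles were added after the values were seen. Replicate numbers did not pair the samples: of 30 pairs of samples with the same number, 0 had deviations from the group means correlated above 0.1. Some genes that this rule names are not reported here. Protein sequences were not used here.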

Additional observations from a re-analysis of the deposited data

Results flagged for a closer look

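Results of 2 kinds were marked for a second look, a sample far from the other 4 of its group and a diet difference that was not the same in both genotypes. Of 32 groups of 5 samples examined (the 6 receptors, *Stra6* and *Cyp26a1* in 4 groups), 2 had a sample whose gap to its neighbour, as a share of the group's range, exceeded 0.71, and chance marks about 1 group in 20. *Rarb* was at 430.2 in VAS WT replicate 5 (gap 0.783 of the range), and it was at 576.3 in replicate 3 of the samples labelled VAD *Stra6-/-* (gap 0.748 of the range). The other values of these groups were 329 to 351 and 479 to 504, and no *Rarb* call was lost without either sample.

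The diet difference in *Stra6-/-* minus that in WT passed the test of the interaction for 4 receptors and for *Cyp26a1*. It was -2.643 for *Rarg*, -0.9096 for *Rxra*, -0.5639 for *Rara* and 0.9566 for *Rarb*, and 3.762 for *Cyp26a1* (adjusted p = 4.23e-04, limma), on the log2 scale. In the samples labelled VAD *Stra6-/-*, *Xist* and *Ddx3y* were both high, and *Stra6* was above VAD WT together with the RPE markers. Genotype, diet, tissue content and the identity of these samples therefore cannot be told apart here.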

How the results depend on the processing

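Across all alternatives, called fold changes of the receptors kept direction and call in 372 recomputations and lost the call in 9, with 0 reversals. Fold changes that were not called changed sign in 29, of which 1 was newly called, were newly called with the same sign in 5 and were otherwise the same in 287. Fitting only the groups compared moved the count of all genes called from 5010 to 8208 for VAS *Stra6-/-* against VAS WT and from 1652 to 639 for VAD WT against VAS WT. Leaving out VAD WT replicates 2 and 4 gave 7124 genes in the latter and 3 receptors in place of 0, among them *Rarg* at 0.257 in place of -0.07. Leaving out each sample in turn gave 1260 to 2651 genes and 0 to 1 receptors there, and 1 to 2 receptors for VAS *Stra6-/-* against VAS WT. The cause was not tested. Signs turned in fold changes near 0: *Rxrg* on the VAS diet was -0.001598 with TMM scaling, -0.1363 and -0.115 with edgeR (TMM and DESeq2 factors), -0.1153 with DESeq2 and -0.2986 to 0.2132 without 1 sample each. For *Rxrg* between the samples labelled VAD *Stra6-/-* and VAD WT it was -0.01446 with edgeR and TMM, with -0.1739 to 0.3483 without 1 sample each. *Rara* between VAD WT and VAS WT was 0.01231 and 0.01278 with edgeR, 0.01398 with DESeq2 and -0.06787 to 0.0893 without 1 sample each. In the same comparison *Rarg* was -0.1611 to 0.05652 and *Rxrb* -0.06499 to 0.08004, and the interaction of *Rxrg* was -0.1963 to 0.466, without 1 sample each. TMM scaling moved the median of all genes by less than 0.1 in each comparison. Fitting the replicate number as a block moved the count of genes called for VAD WT against VAS WT to 1446 and changed no receptor call. Same-numbered samples correlated at -0.134 to 0.0948, and 5 of 30 correlated best with their own number. Of 66 called comparisons of other named genes, 63 held under each alternative. Depth was lowest for *Rxrg*, with 20 to 133 reads per library.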

Other observations

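Markers of other tissues differed between the same libraries in which the receptors were measured. The sum of 12 skeletal muscle markers was 15039 to 18377 in VAS WT and 37797 to 42534 in VAS *Stra6-/-*. All 12 were higher in the latter, beside 15.9% of all genes. In VAD WT the sum was 16753 and 17969 in replicates 4 and 2 against 4799 to 5065 in the other 3. The sum of 10 fibroblast and sclera markers was 44855 to 47524 in VAS WT and 222959 to 234509 in the samples labelled VAD *Stra6-/-*, where *Dcn*, a proteoglycan of connective tissue, was 2.84 log2 units above VAS *Stra6-/-* (adjusted p = 5.36e-09, limma). Melanosome genes were higher there too, 8 of 8 against both VAD WT and VAS *Stra6-/-*, beside 26.2% and 24.4% of all genes. Of 11 rod markers, 10 were lower than in VAD WT, beside 29.6% of all genes. Without VAD WT replicates 2 and 4, 9 rod markers were lower and 1 higher, beside 32.5% of all genes lower and 30.7% higher. The part of these tissues in the receptor values was not tested.

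Over the 20 libraries, the transcripts whose log2 values ran most closely with *Rarb* were *Enho* (Pearson r = 0.96), 4632428N05Rik (0.96) and *Penk* (0.96). For *Rxrb* they were *Zfp593* (0.85), *Dok3* (0.85) and *Gmip* (0.84), and for *Rxrg* *Triqk* (0.82), Synj2bp-cox16 (0.73) and *Oscp1* (0.72). These values describe 4 groups of libraries, of which 1 stands far from the others, and carry no test.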
